A study of Enchytraeus crypticus with 54 samples.

Results

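The genes described here are the 100 genes of *Enchytraeus crypticus* whose signal was most lowered under all 4 forms of copper tested, out of 19499 genes measured on every array and 43750 on the array design. *E. crypticus* is a small white soil worm (an oligochaete) used in standard soil toxicity tests. The data were 54 one-colour arrays, each hybridized with RNA from 1 pool of 20 adults with a clitellum, the band that marks sexual maturity. The worms stayed for 7 or 3 days in soil with copper as Cu-Field (soil with an old copper contamination), Cu-NWires (nanowires), Cu-NPs (nanoparticles) or CuNO3 (the soluble nitrate), or in control soil. All soil came from the Hygum site in Denmark, the control soil from its control area. Each form was given at its EC50 and its EC20, the concentrations that lower reproduction by 50% and by 20%. The forms were thus matched by their effect on reproduction and not by copper concentration. The 16 treatments and the 2 controls gave 18 groups of 3 arrays, with biological replicates as the series describes them. One control served all 8 treatments of a day, so the treatments of a day are not independent of each other.

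Copper is an essential metal that becomes toxic in excess. Cells hold it at low free levels with transporters, chaperones and metal-binding proteins such as metallothioneins. Nanoparticles, nanowires and aged field copper release copper ions at different rates, and worms take the metal up through the skin and with ingested soil. Reproduction is the endpoint on which such tests in enchytraeids usually rest. The arrays named their probes by contigs and sequencing reads, and the tables used here did not pair these names with known genes. The 100 genes are therefore described by their signals, ranks and shared behaviour, and no function is assigned to any of them. Each gene corresponds to 1 probe.

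The genes were chosen on the signals themselves. On each array the log2 signal of a gene was set against the median of the 19499 genes, a scale on which 0 is the typical gene of that array (Median normalization). For each form, the change against the control of the same day was averaged over EC50, EC20 and both days. The highest of the 4 form averages was the score of a gene, and the 100 lowest scores were taken. The changes against control are therefore a description and were not tested as support for the choice. Scores ran from -1.15 at rank 1 to -0.60 at rank 100, with a median of -0.70. The threshold fell in a continuous range. The gene at rank 100 had form averages of -0.71 for Cu-Field, -0.86 for Cu-NWires, -0.60 for Cu-NPs and -0.68 for CuNO3, and the first gene left out had -0.64, -0.86, -0.69 and -0.60 in the same order of forms.

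As a set the 100 genes were dim. Their median log2 signal was 4.82 (28.2 scanner units), against 6.44 (86.6 units) over all 19499 genes. Of the 100, 35 (35%) were well above background on all 54 arrays, as were 65.8% of all genes. The set still spanned log2 signals from 2.87 to 16.07, and 11 of its genes averaged over 1000 units, against 16.8% of all genes. In 80 of the 100 genes at least 1 array of every group was well above background. The other 20 had up to 9 groups with none, and their changes there are bounds. No copper group had more than 8 such genes (Cu-NPs EC20 at 3 days, against 2.25% of all genes). Neither control had any, against 0.251% of all genes at 7 days and 0.723% at 3 days. The choice itself favoured genes that were high in the controls. The array-to-array SD of these genes within a group had a median of 0.69 on the log2 scale, against 0.46 over all genes. Names of single sequencing reads were carried by 61 of the 100 genes, against 53.1% of all genes, and names of contigs by 39, against 46.9%. The read-named and contig-named genes had similar median log2 signals, 4.80 and 4.93. A non-uniform spot was flagged on at least 1 array for 3 of the 100 genes, against 1.27% of all genes, and no spot was saturated.

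The separation from the control, on which the genes were chosen, was partial at 7 days and complete at 3 days. At 7 days the median of the 100 genes on an array lay between -2.35 and -0.55 on the 24 copper arrays (median -1.78), against -1.49, -1.09 and -0.15 on the control arrays. Here the groups overlapped, with 2 of the 3 control arrays inside the range of the copper arrays. At 3 days the 24 copper arrays lay between -2.23 and -0.84 (median -1.57), against -0.45, -0.34 and 0.00 on the control arrays, and no copper array reached a control array. Control replicate 3 of each day was the highest control array of that day, and both of these arrays sat on the same slide. They were also the dimmest control arrays, with array medians of 47.5 units at 7 days and 52.9 units at 3 days, against 57.6 to 115 units for the other control arrays. At 3 days all Cu-Field arrays (medians of 89.2 to 133 units) and Cu-NWires arrays (84.9 to 143) were brighter than all control arrays (52.9 to 81.2). Cu-NPs (45.3 to 85.8) and CuNO3 (63.0 to 88.5) overlapped the control in brightness. The part of slide and brightness in the position of the control arrays and in the separation was not tested. A lower signal in pooled whole worms can come from less RNA per cell or from fewer cells that make the RNA, and these cannot be told apart.

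**Figure D1:**
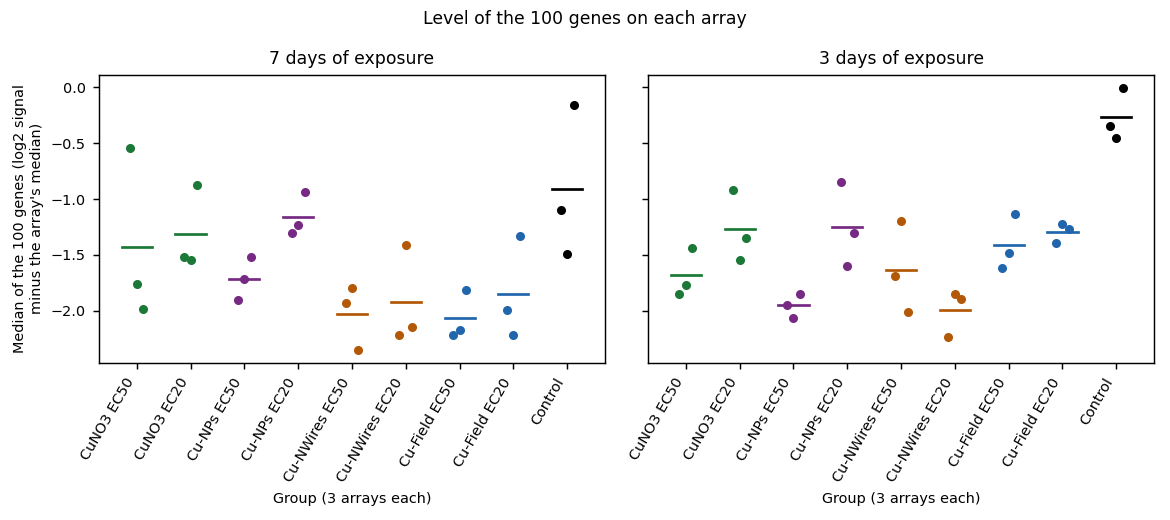
Median of the 100 genes on each array, as log2 signal minus the median of all 19499 genes of that array, for 7 days (left) and 3 days (right). Points are arrays, short lines are means of 3 arrays, and colours are the copper forms with the control in black. At 7 days the control arrays spread from -1.49 to -0.15 among the copper arrays, while at 3 days all copper arrays lie at or below -0.84 and all control arrays at or above -0.45.

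By treatment, the median change of the 100 genes against control at 7 days was -0.95 under Cu-Field at EC50 and -0.93 at EC20. Under Cu-NWires it was -0.85 at EC50 and -0.84 at EC20. For Cu-NPs it was -0.82 at EC50 and -0.06 at EC20, and for CuNO3 -0.58 at EC50 and -0.22 at EC20. At 3 days Cu-Field had -1.05 at EC50 and -0.91 at EC20, and Cu-NWires -1.35 at EC50 and -1.58 at EC20. Cu-NPs had -1.77 at EC50 and -0.88 at EC20, and CuNO3 -1.42 at EC50 and -0.89 at EC20. At 7 days the EC20 treatments with Cu-NPs and CuNO3 thus lay nearest to the control. Without control replicate 3 the median changes at 7 days ran from -0.63 to 0.24, and those of Cu-NPs EC20 (0.24) and CuNO3 EC20 (0.02) were above 0. Without control replicate 2 they ran from -1.17 to -0.23. At 3 days, leaving out any control array kept every treatment between -1.82 and -0.79.

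A change below 0 in all 16 comparisons was seen in 30 of the 100 genes, against a background of 0.949% of all genes, a contrast the choice itself produced. A further 30 were below 0 in 15 comparisons and 22 in 14, and the fewest for any gene was 11. All 24 copper arrays lay below all 3 control arrays for 0 genes at 7 days (0.0154% of all genes) and for 12 genes at 3 days (0.528% of all genes).

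**Figure D2:**
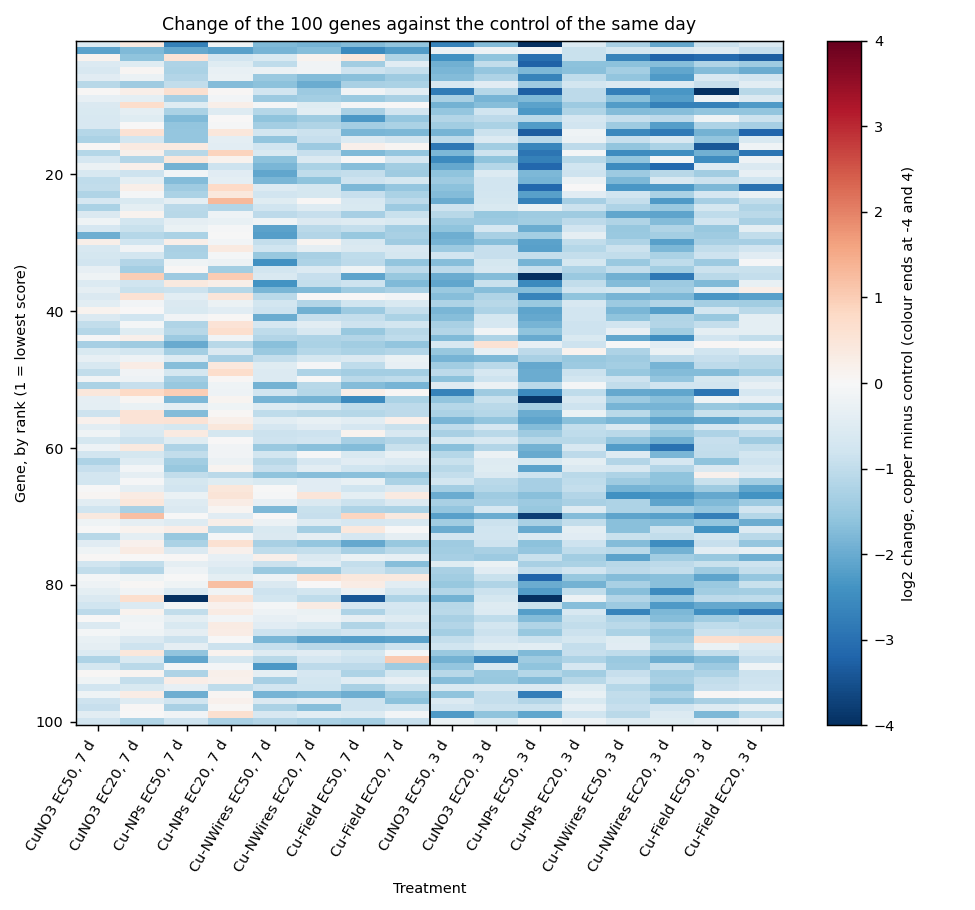
Log2 change against the control of the same day for each of the 100 genes (rows, rank 1 at the top) in the 16 treatments (columns, 7 days left of the line and 3 days right of it). Blue is lower under copper, and the colour ends at -4 and 4. The blue is deeper at 3 days, Cu-NPs EC20 at 7 days is the palest column (median -0.06), and rank 82 stands out in both Cu-NPs EC50 columns.

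Counted gene by gene with limma at an adjusted p under 0.05, the 100 genes gave 181 calls lower over the 16 treatments and 0 calls higher. These calls describe the contrasts the genes were chosen on. At 7 days Cu-Field had 2 genes called at EC50, where 0.303% of all genes were called lower, and 1 gene at EC20 (0.0308% of all genes). Cu-NWires had 0 at EC50 (0.0256%) and 1 at EC20 (0.0205%). Cu-NPs EC50 (0.00513%), Cu-NPs EC20 (0%), CuNO3 EC50 (0.00513%) and CuNO3 EC20 (0%) had 0 of the 100 genes called. At 3 days Cu-Field had 15 genes called at EC50 (0.569%) and 15 at EC20 (2.63%), and Cu-NWires 30 at EC50 (4.46%) and 50 at EC20 (7.91%). Cu-NPs EC50 had the most, 67 (6.9%), and Cu-NPs EC20 had 0 (0%). CuNO3 EC50 had 0 (0.0359%) and CuNO3 EC20 had 0 (0%). Thus 177 of the 181 calls were at 3 days. Calls over all genes also fell mostly on that day, with up to 7.91% in a treatment, against at most 0.303% at 7 days. In both treatments with CuNO3 at 3 days no gene of the set was called. An unadjusted p under 0.05 for a lower signal was reached by 77 of the 100 genes at EC50, against 4.55% of all genes, and by 38 at EC20, against 1.90%, in contrasts that the choice used. Of the 100 genes 81 were called lower at least once, 16 in 4 or more treatments, and none in more than 5. The shares of all genes called as often are not given here, and the choice used these contrasts.

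Among the forms, Cu-NWires gave the lowest averages. The median form average of the 100 genes was -0.997 for Cu-Field, -1.17 for Cu-NWires, -0.83 for Cu-NPs and -0.75 for CuNO3. Cu-NWires was the lowest form for 54 genes, Cu-Field for 22, Cu-NPs for 16 and CuNO3 for 8. The form that set the score, being the least lowered, was CuNO3 for 44 genes, Cu-NPs for 38, Cu-Field for 17 and Cu-NWires for 1. An average below -1, a signal more than 2-fold lower than the control, was reached by 49 genes for Cu-Field, 70 for Cu-NWires, 32 for Cu-NPs and 14 for CuNO3. This order depended on the scale between arrays. After SVCD normalization, the method of the study, which scales conditions on genes found not to vary between them, the medians were -0.43 for Cu-Field, -0.68 for Cu-NWires, -0.83 for Cu-NPs and -0.76 for CuNO3. Under SVCD the median form average of all genes was 0.49 for Cu-Field and 0.42 for Cu-NWires, against 0.02 for Cu-NPs and 0.01 for CuNO3. Scaled on the spike-in probes, the medians of the set were -0.10 for Cu-Field, -0.86 for Cu-NWires, -0.74 for Cu-NPs and -0.63 for CuNO3, and 59 of the 100 genes were below 0 for Cu-Field, so that 41 were not lowered by that form on this scale. With no normalization 92 were below 0 for Cu-Field. Relative to the median of all genes, the 100 genes stood at -0.92 for Cu-Field, -1.10 for Cu-NWires, -0.85 for Cu-NPs and -0.77 for CuNO3 under Median normalization. Within the arrays of a single scan day the form medians were -1.09, -0.92, -0.84 and -0.70 on the first day and -1.03, -1.37, -0.93 and -0.82 on the second, in the same order of forms. Some treatments had no array on 1 of the days and were left out of these averages.

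The gene with the lowest score, contig02370, was one of the 11 over 1000 units. In Cu-NPs EC50 it had 2901, 1255 and 19502 units at 7 days and 1271, 2552 and 2819 units at 3 days, against 18852, 23658 and 21596 units in the control at 7 days and 20736, 50030 and 25860 units in the control at 3 days. Cu-NPs EC50 at 3 days lay clear of its control on all 3 arrays, and at 7 days on 2 of 3. In the other forms the signal ran from 2370 to 55610 units (median 25361) over the 12 Cu-Field arrays, 5466 to 39767 (median 8372) in Cu-NWires and 4651 to 58461 (median 9764) in CuNO3. Its form averages were -1.18 for Cu-Field, -1.74 for Cu-NWires, -1.89 for Cu-NPs and -1.15 for CuNO3. In CuNO3 EC20 at 7 days its mean was above that of the control by 0.37 ± 0.85 on the log2 scale (SE).

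At rank 2, GYUW2K401ASB2J stood high on 1 control array. The 48 copper arrays ranged from 3.09 to 18.3 units, against 14.7, 15.8 and 155 units in the control at 7 days and 24.8, 3.77 and 5.77 units in the control at 3 days. The 155 units were on control replicate 3 at 7 days, and without that array the score was -0.31 in place of -1.08, outside the range of the 100 genes. For ranks 1, 3 and 4 no left-out array raised the score above -0.84. GYUW2K401ASB2J was well above background on 18 of the 54 arrays. At 7 days it was not well above background on any array of Cu-Field EC50, Cu-NPs EC20 and CuNO3 EC50, where it was at least 4.53-fold, 3.02-fold and 4.39-fold lower than the control mean, in that order. Without control replicate 3 at 7 days these bounds were 1.56-fold, 1.04-fold and 1.51-fold. These bounds compare the control mean with the higher of the gene's own signal and the lowest signal well above background on each array. The gene was called lower in 0 of the 16 treatments.

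At rank 3, contig07971 had lower medians than the control at 3 days in all 4 forms and overlapped the control at 7 days. Over the 6 arrays of each form at 3 days, the median was 75.8 units in Cu-Field (53.7 to 124), 97.0 in Cu-NWires (15.2 to 479), 108 in Cu-NPs (37.7 to 725) and 151 in CuNO3 (26.2 to 581), against 452, 412 and 369 units in the control. Units are not scaled between arrays. Relative to the array medians, at 3 days Cu-Field reached at most 0.01 and Cu-NWires 1.74, so that all 12 arrays of these forms were below the control arrays (2.34, 2.80 and 2.97), while Cu-NPs reached 3.60 and CuNO3 2.73 and overlapped them. At 7 days the highest array was at 0.04 in Cu-Field, -0.39 in Cu-NWires, -0.07 in Cu-NPs and -0.49 in CuNO3, and all 4 forms overlapped the control arrays (-1.46, -0.93 and -0.40).

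At rank 4, GYUW2K402HS4C9 had 39.8, 27.8 and 41.8 units in Cu-NPs EC50 at 7 days, against 78.8, 105 and 36.3 units in the control. At 3 days it had 13.3, 18.7 and 4.86 units in Cu-NPs EC50, below all control arrays, which had 67.3, 156 and 52.8 units. On the log2 scale of the array medians, Cu-NPs EC50 at 7 days averaged -1.58 ± 0.27 and the control at 7 days -0.35 ± 0.21 (SD, n = 3 each). The highest Cu-NPs array at 7 days was at -0.62 and the lowest control array at -0.53, so the overlap in units was absent on this scale. Cu-NPs EC50 at 3 days averaged -2.86 ± 0.78 and the control at 3 days 0.39 ± 0.49 (SD, n = 3 each). Cu-NPs EC50 at 3 days was the lowest of the 18 groups for this gene.

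**Figure D3:**
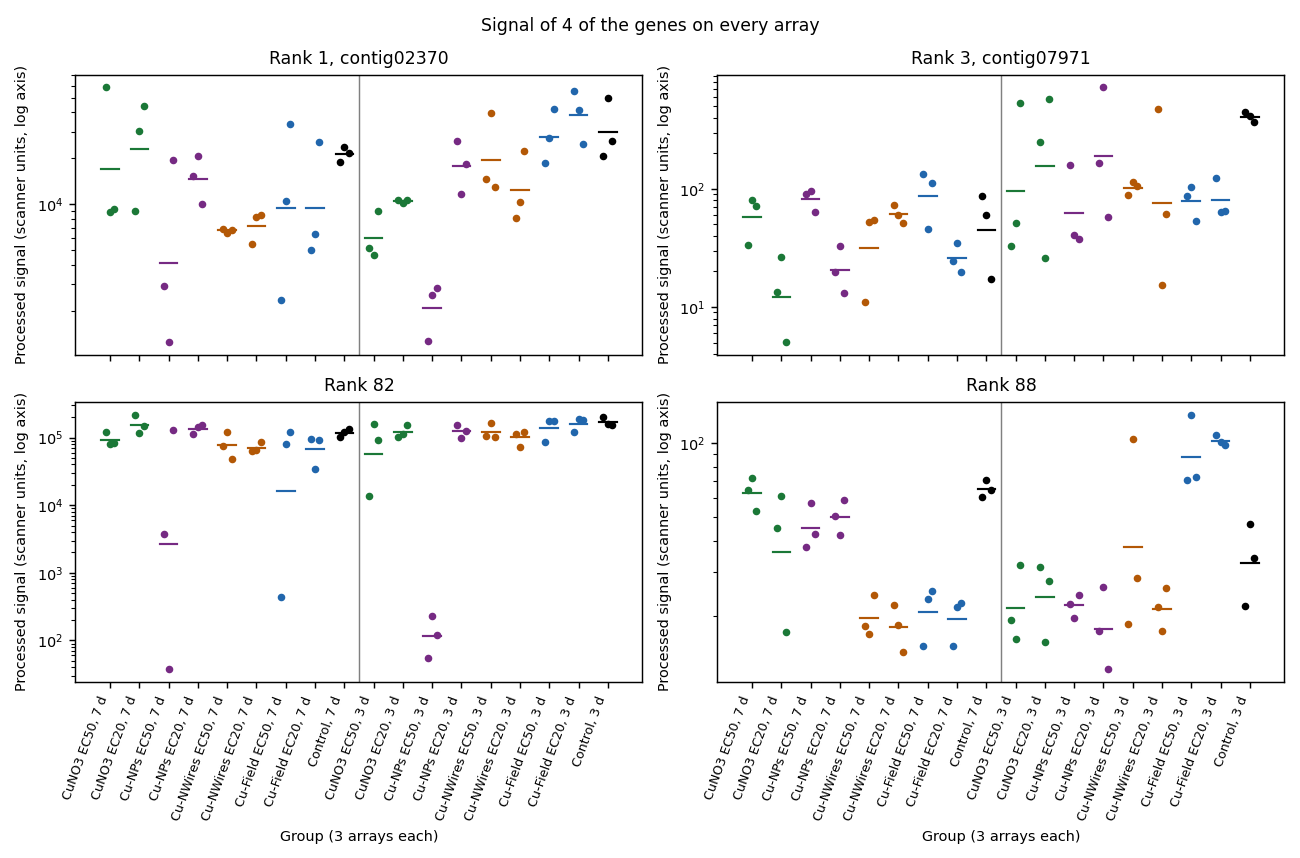
Processed signal in scanner units (log axis) of the genes at ranks 1, 3, 82 and 88 on all 54 arrays, with 7 days left of the grey line and 3 days right of it. Points are arrays, short lines are geometric means of 3 arrays, and colours are the copper forms with the control in black. Rank 82 is at 33800 to 218839 units on 47 arrays and under 1000 units on 5 arrays, all of them EC50.

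Several differences were not themselves used in the choice and could be tested: EC50 against EC20, the control at 7 days against the control at 3 days, and the copper effect at 7 days against that at 3 days. All group means enter the score, so these differences are free of the choice only where groups vary alike. At 3 days the 10th percentile of the change over all genes was -0.97 for Cu-NPs EC50 and -0.53 for Cu-NPs EC20. The days differed too. In limma up to 32.5% of all genes had an unadjusted p under 0.05 in a treatment at 3 days (Cu-NPs EC50). At 7 days the highest share was 13.4% (Cu-Field EC50). The part of such unlike spread in the results below was not tested. All tests used limma over the 54 arrays with a mean per group and Benjamini-Hochberg adjustment over the 19499 genes.

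The first test asked whether the genes lay lower at the stronger effect level. Averaged over forms and days, EC50 was lower than EC20 for 7 of the 100 genes, where 0.897% of all genes were called lower, and higher for 0 genes, where 1.21% of all genes were called higher. The 7 adjusted p-values ran from 0.0085 to 0.048. The estimate was negative for 82 of the 100 genes, against 46.7% of all genes, and an unadjusted p under 0.05 was reached by 39 genes in that direction, against 10.2% of all genes. The median difference of the set was -0.35 and that of all genes 0.02. Scaled on the spike-in probes the set had 0.01 and all genes 0.38. This scaling shifts whole arrays and leaves the gap between the set and all genes as it is. The 7 genes sat at ranks 11, 15, 21, 29, 51, 62 and 82, and on every one of the 54 arrays 6 of these stood well above background.

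The estimates were most negative for Cu-NPs. For Cu-NPs the median of EC50 minus EC20 was -0.80 at 7 days and -0.89 at 3 days, with 4 genes called lower at 7 days (2.18% of all genes) and 8 at 3 days (1.7% of all genes). None was called higher on either day, where 1.64% and 2.3% of all genes were, at 7 and 3 days. The 100 genes were lower at EC50 on both days in 69 cases, against 30.2% of all genes. For the other forms 0% of all genes were called on either day, in either direction, so that the 0 calls among the 100 genes are the background. The medians were -0.08 and -0.07 for Cu-Field, -0.11 and 0.26 for Cu-NWires, and -0.25 and -0.47 for CuNO3 at 7 and 3 days. In an average that left out the 12 Cu-NPs arrays, chosen after seeing the data, EC50 was lower for 0 of the 100 genes after adjustment, while 17 had an unadjusted p under 0.05, all lower, against 3.98% of all genes (1.21% lower). The median was then -0.14. The difference between Cu-NPs and the other forms in this respect was not tested. An F-test over the 8 contrasts of form and day called 1 of the 100 genes, at rank 82, and 0.241% of all genes.

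The average depended on single arrays and on the slide. With each of the 54 arrays left out in turn it called from 3 to 22 of the 100 genes lower and at most 1 higher. The highest counts came without Cu-NPs EC50 replicate 3 at 7 days (22) and without CuNO3 EC20 replicate 2 (17) or CuNO3 EC50 replicate 1 (17) at 7 days. These counts stand without the share of all genes called with the same array left out, so they do not show whether the set alone moved. With slide as a block the average called 0 of the 100 genes, and 8 of all genes, while the median stayed at -0.34.

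Rank 82 was the gene with the most negative difference. It was among the brightest genes of the array, with 54 of 19499 genes brighter, and had 33800 to 218839 units on 47 of the 54 arrays. In Cu-NPs EC50 it had 54.7, 228 and 122 units at 3 days, against 154843, 97883 and 126696 units in Cu-NPs EC20 and 199730, 160109 and 152400 units in the control. All 3 arrays were far below every array of both, and the mean change against the control was a factor of 1813. In Cu-NPs EC50 at 7 days it had 3765, 37.5 and 129582 units, so that 2 of 3 arrays were low and 1 was at the level of Cu-NPs EC20 at 7 days (111255, 145157 and 153925 units) and of the control (101012, 120889 and 131543 units). Outside Cu-NPs it was low on 1 array of Cu-Field EC50 at 7 days (433 units) and 1 array of CuNO3 EC50 at 3 days (13499 units). All 7 low arrays were thus EC50, and the gene was well above background on every array. In the average over forms and days EC50 minus EC20 was -2.62 ± 0.52 on the log2 scale (SE, adjusted p = 0.0085, limma). For Cu-NPs alone the difference was -10.58 ± 1.48 at 3 days (adjusted p = 3.04e-05, limma) and -6.38 ± 1.48 at 7 days (adjusted p = 0.044, limma).

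The second test compared the controls. Control worms at 7 days had lower signals than control worms at 3 days for 7 of the 100 genes, where 1.28% of all genes were called lower, and higher signals for 0 genes, where 1.84% of all genes were called higher. The adjusted p-values of the 7 genes ran from 0.0055 to 0.043. The estimate was negative for 74 of the 100 genes, against 54.7% of all genes, and reached an unadjusted p under 0.05 for 32 genes in that direction, against 11.1% of all genes. The median difference of the set was -0.74, against -0.07 over all genes. The 7 genes were those at ranks 3, 10, 66, 67, 79, 80 and 85, and none of them was among the 7 called for EC50 against EC20. For each of the 7, all control arrays at 7 days were below all control arrays at 3 days. These are the arrays on which the genes were called, so this is a description and no further support. A high control at 3 days also lowers the changes of that day and with them the score. Rank 79, for example, had changes of -3.20 to -0.88 at 3 days and -0.39 to 0.61 at 7 days. How much of the control difference the choice itself produced was not tested.

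Among these, rank 79 had the smallest p. Its signal was 45.3, 60.4 and 18.7 units in the control at 7 days and 118, 191 and 93.8 units in the control at 3 days. Relative to the array medians the control averaged lower at 7 days by 2.23 ± 0.45 on the log2 scale (SE, adjusted p = 0.0055, limma). Copper arrays had a median of -1.17 at 7 days and -0.69 at 3 days. The control arrays had -1.34 to -0.93 at 7 days and 0.83 to 1.23 at 3 days. By form at 3 days the medians were -0.77 for Cu-Field, -0.66 for Cu-NWires, -1.84 for Cu-NPs and -0.10 for CuNO3. Single arrays of Cu-NPs (up to 0.77) and CuNO3 (up to 0.66) came close to the control of that day. Rank 3 had the largest difference of the 7, -3.63 ± 0.85 (SE, adjusted p = 0.015, limma). Rank 85 had the smallest, -1.30 ± 0.32 (SE, adjusted p = 0.023, limma).

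The direction of this comparison rested on the scale between arrays. After SVCD normalization 9 of the 100 genes were called higher and 5 lower at 7 days, against 20.0% and 0.538% of all genes. After MedianCD 9 were higher and 4 lower, against 19.6% and 0.446% of all genes. Scaled on the spike-in probes, 15 were called higher and 0 lower, against 33.7% and 0.0462% of all genes. Each of these scalings shifts all genes alike. Under both methods the median of all genes was higher at 7 days, by 0.42, against -0.07 under Median normalization. Relative to that median the set stood at -0.67 under Median, SVCD and MedianCD normalization alike, since these methods shift whole arrays. Control replicates also decided the count. Without control replicate 3 at 7 days 13 genes were called lower, and without replicate 1 at 7 days 1 gene was. Without replicate 2 at 7 days 1 gene was called lower and 2 higher. Leaving out replicate 1, 2 or 3 of the control at 3 days gave counts of 2, 4 and 2, all lower. The share of all genes called with the same array left out is not given here, so these counts do not show whether the set alone moved. A limma fit to the 6 control arrays alone called 0 of the 100 genes and 0% of all genes.

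**Figure D4:**
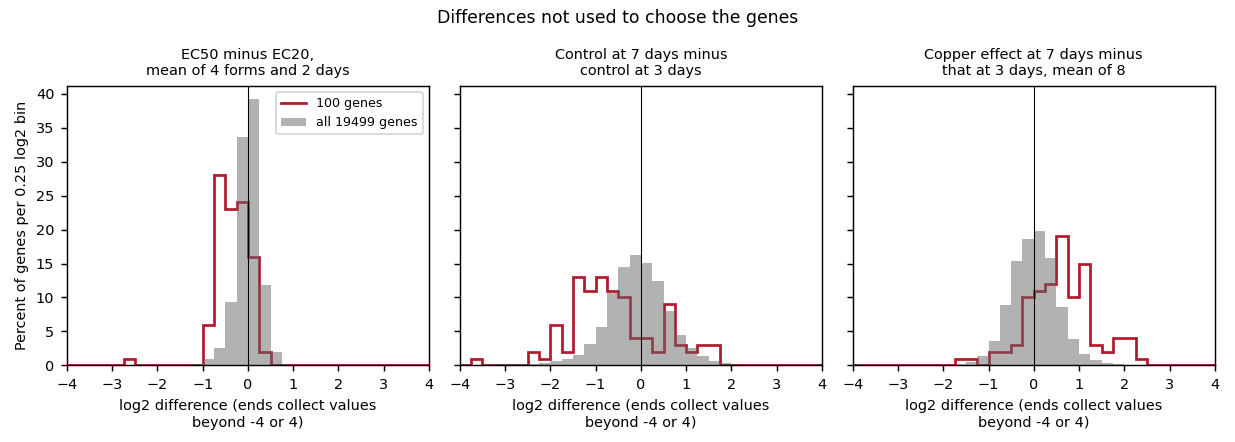
Distribution of 3 log2 differences that were not themselves used in the choice, for the 100 genes (red line) and for all 19499 genes (grey), as percent of genes in bins of 0.25. From left to right these are EC50 minus EC20 averaged over forms and days, the control at 7 days minus the control at 3 days, and the copper effect at 7 days minus that at 3 days averaged over 8 treatments. The medians of the 100 genes are -0.35, -0.74 and 0.63, against 0.02, -0.07 and 0.02 for all genes.

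The third test asked whether the copper effect differed between the days. Averaged over the 8 treatments, the effect at 7 days minus that at 3 days was negative for 19 of the 100 genes and positive for 81, where 48.7% of all genes were negative, with a median of 0.63, against 0.02 over all genes. Scaled on the spike-in probes these medians were -0.14 and -0.75. None of the 100 genes was called in limma (0 higher and 0 lower, where 0% and 0.0359% of all genes were called), and 19 had an unadjusted p under 0.05, 1 of them lower, against 9.13% of all genes (5.56% lower). The genes were chosen on the mean of both days, and the same control difference enters this test and the one before. All 7 genes called lower in the control at 7 days had a positive value here. An F-test over the 8 contrasts of form and level called 2 of the 100 genes, at ranks 79 and 88, where 2.22% of all genes were called, so the share of the set was at the background. By single contrast, Cu-Field EC50 had 2 genes with a higher and 1 with a lower change at 7 days (0.0974% and 0.549% of all genes), Cu-Field EC20 had 1 with a lower change (0.559%) and 0 with a higher one (0.0462%), and the other 6 contrasts had 0.

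Rank 88 lay below the control at 7 days and above it at 3 days under Cu-Field. At 7 days it had 15.1, 23.4 and 25.1 units in Cu-Field EC50 and 15.1, 21.7 and 22.5 units in Cu-Field EC20, against 60.2, 70.7 and 64.7 units in the control. The Cu-NWires arrays of that day were as low, at 14.2 to 24.2 units, while Cu-NPs and CuNO3 had 17.2 to 72.4 units. At 3 days it had 71.0, 130 and 72.7 units in Cu-Field EC50 and 107, 101.2 and 97.8 units in Cu-Field EC20, against 21.9, 46.8 and 34.3 units in the control. All Cu-Field arrays were above all control arrays at 3 days and below them at 7 days. The difference of the 2 changes was -2.88 ± 0.57 at EC50 and -2.85 ± 0.57 at EC20 (SE, adjusted p = 0.0082 and 0.0078, limma), and the F-test over 8 contrasts gave an adjusted p of 3.12e-05 (limma). Averaged over both days, its Cu-Field change was still below 0, as the choice required.

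Arrays of the same group differed in ways that several of the 100 genes shared. The deviations of 2 genes from their group means correlated across the 54 arrays with a median r of 0.14 over the 4950 pairs of the set, against 0.02 over all pairs of the 19499 genes. An r over 0.8 was found for 38 pairs (0.768%, against 0.362% of all pairs). The 100 genes were dimmer and varied more within groups than all genes, so all pairs are an unlike background. The part of brightness in these correlations was not tested. Linked by such pairs, 30 genes fell into 9 sets and 70 were linked to none. The largest set held 8 genes (ranks 18, 20, 28, 33, 36, 41, 69 and 92), with r up to 0.99 and a median log2 signal of 9.66, well above that of the 100 genes. Its median form averages were -1.03 for Cu-Field, -1.44 for Cu-NWires, -0.74 for Cu-NPs and -1.03 for CuNO3. Its control difference was positive, with a median of 0.72 at 7 days minus 3 days, where the 100 genes had -0.74. A set of 4 genes (ranks 14, 17, 22 and 84) had its lowest form average under Cu-Field, -2.04, and a control difference of -1.81. The genes at ranks 15 and 62, both called lower at EC50, formed a pair with r = 0.89, and contig02370 was paired with the gene at rank 55 (r = 0.88). These sets were formed after seeing the data and were not tested, and different probes that read 1 transcript cannot be told apart from different genes here.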

How the data were processed

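The processed signals deposited by the authors are intensity values on a linear scale, background-subtracted by Agilent Feature Extraction and not normalized between arrays. The value table deposited by the authors holds the same intensity values, rounded (ratio to the scanner value 0.995 to 1.005). Genes with a positive and significant signal on all 54 arrays were kept, their signals were taken to log2, and the array median was subtracted. Array medians of the kept genes ran from 35.9 to 143 units, and 38.2% to 66.5% of the 43750 probes of an array were well above background. The number of arrays, 3 per group, limits the precision. Groups came from the sample titles, and every sample was used. No column of another sample was present (0 columns). The 100 genes, the tests and the genes named by ID (ranks 1 to 4) or by rank (the smallest p of each test, and the genes at the threshold) were chosen with earlier results of these data known. The genes at ranks 10, 11, 15, 21, 29, 51, 55, 62, 66, 67, 70, 80 and 85 and the linked sets were singled out after their values were seen. limma 3.58.1 in R 4.3.3 fitted a mean per group, with Benjamini-Hochberg adjustment per comparison at 0.05, and was tested on simulated data. Figures used Python 3.11.15, pandas 2.3.3 and matplotlib 3.10.9. Alternatives covered 7 scalings or background corrections, 2 filters, 3 blocks (slide, scan day, replicate number), each array left out, the value table, a fit to 2 groups alone and the methods' t-test. SVCD and MedianCD used the code published with the study. The mean signal was not among the columns, so normexp used the median spot signal with an offset of 50.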

Additional observations from a re-analysis of the deposited data

Results flagged for a closer look

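A difference of the copper effect between the days was called for 3 of the 100 genes, in the F-test (2 genes, where 2.22% of all genes were called) or in a Cu-Field contrast (up to 2 genes in a direction, where at most 0.559% of all genes were called). No group of 3 arrays was tested for an outlying array. Rank 88 had adjusted p = 3.12e-05 in the limma F-test over 8 contrasts, and its log2 effect at 7 days minus that at 3 days was -2.88 for Cu-Field EC50 (change of -2.20 at 7 days and 0.68 at 3 days) and -2.85 for Cu-Field EC20 (-2.15 and 0.70). Rank 79 had adjusted p = 0.025 in the same F-test, and its difference for Cu-Field EC50 was 2.51 (0.41 at 7 days and -2.10 at 3 days). Rank 70 had a difference of 3.60 for Cu-Field EC50 (0.87 at 7 days and -2.73 at 3 days, adjusted p = 0.049, limma). For ranks 79 and 70 the difference was larger with Cu-NPs EC50, 3.18 and 3.75, and missed the threshold there (adjusted p = 0.053 and 0.079, limma). All 16 changes of a gene share the 2 controls. With slide as a block the F-test called 0 of the 100 genes.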

How the results depend on the processing

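The median form average of the 100 genes, -0.97, was negative under every scaling, filter and left-out array tried, and between -1.05 and -0.82 with an array left out. The genes stayed those chosen as low on these same arrays, so the choice largely set this sign. The control difference called 7 genes lower. It was reversed, with more genes called higher than lower, under SVCD (14 called, 9 higher), MedianCD (13, 9 higher), spike-in scaling (15, all higher), no normalization (3, 2 higher) and without control replicate 2 at 7 days (3, 2 higher). It called 4 under normexp, 3 among genes well above background on all arrays, 3 with no filter, 0 with the control arrays fitted alone, and 0 by the methods' t-test (27 unadjusted), and 1 to 13 with an array left out. For EC50 against EC20 (7), the count was 1 under spike-in scaling, no normalization and no filter, 2 under normexp, 0 with slide as a block, 0 without the Cu-NPs arrays and 3 to 23 with an array left out. Its F-test (1) called 15 under SVCD, 13 under MedianCD, 0 with slide as a block and 1 to 11 with an array left out. The averaged copper effect by day called 0 throughout. Its F-test (2) called 35 under SVCD, 32 under MedianCD, 36 under spike-in scaling, 6 under Quantile and 4 with no normalization. It called 1 with either filter change, 0 under normexp or with slide as a block and 1 to 7 with an array left out. Counts in this section stand without the share of all genes called under the same setting, so they describe no trait of the set. The 181 treatment calls became 107 under MedianCD, 19 under spike-in scaling, 83 with no normalization, 89 under normexp, 81 among genes well above background, 34 with slide as a block, 13 by the methods' t-test (436 unadjusted) and 84 to 196 with an array left out, the lowest without control replicate 3 at 3 days (104 and 116 without replicates 1 and 2). Under normexp the median form average was -0.40 over the forms, -0.42 for Cu-Field, -0.53 for Cu-NWires, -0.31 for Cu-NPs and -0.29 for CuNO3. Cu-Field had -0.44 under MedianCD, -0.43 under SVCD, -0.10 under spike-in scaling and -0.34 with no normalization (59 and 92 of the 100 genes below 0 in the last 2), and Cu-NWires -0.66, -0.68 and -0.71 under MedianCD, SVCD and no normalization. With an array left out, Cu-Field spanned -1.07 to -0.86, Cu-NWires -1.21 to -1.01, Cu-NPs -0.92 to -0.74 and CuNO3 -0.90 to -0.63. The rule chose 43 of the 100 genes again under SVCD, 45 under MedianCD, 31 under spike-in scaling, 48 with no normalization and 42 under normexp. Only 35 of the 100 genes pass the filter of well above background on all arrays, and all 35 were chosen again. That filter left the values as they were and only removed genes, so this outcome was fixed in advance and says nothing of how stable the choice is. Other counts under that filter are likewise out of 35 genes. With no filter the rule chose 1 again, and with an array left out 56 to 100 (56 without control replicate 2 at 7 days). The cause of these differences was not tested.

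Arrays of the same number in different groups did not deviate together (459 pairs, median r = -0.03, from -0.76 to 0.74), and 16 of 54 arrays correlated best with one of their own number. A replicate block changed none of the counts (7, 7, 1, 0, 2 and 181). Spots near background limit what can be said of the dim genes.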
